A study of Arabidopsis thaliana with 6 samples.

Results

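The alternative respiration genes of Arabidopsis thaliana described here are 9 nuclear genes taken by their locus identifiers. The rule uses no measured value, but the list was drawn up with earlier results of these data known. They are the alternative oxidase genes AOX1A, AOX1B, AOX1C, AOX1D and AOX2, the type II NAD(P)H dehydrogenase genes NDA1, NDA2 and NDB2, and UPOX (AT2G21640). The deposited table held 22426 loci, and 8 of the 9 genes were measured. AOX1B (AT3G22360) was not analysed here. Whole seedlings aged 2 weeks were sampled, with 3 libraries labelled wild type (WT) and 3 labelled NCBP mutant. All plants were grown at 22 °C with 16 h of light and 8 h of dark. The labels name no accession, allele or number of mutant lines, and they do not say whether replicates were separate sowings, so the p-values speak of variation among the 6 libraries, part or all of which can be technical. NCBP is a relative of the translation factor eIF4E that binds the mRNA cap.

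In the main respiratory chain of plant mitochondria, electrons enter ubiquinone through complex I or complex II and leave through complex III, cytochrome c and complex IV, and protons are pumped on the way. Plants hold a second route, in which type II NAD(P)H dehydrogenases feed ubiquinone without pumping protons and the alternative oxidase (AOX) passes its electrons straight to oxygen. AOX1A is the best known marker of mitochondrial retrograde signalling, by which a disturbed mitochondrion changes nuclear gene expression. NDB2 is an external NADH dehydrogenase of the inner membrane that is known to be induced together with AOX1A under stress.

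Levels were FPKM as deposited, fragments scaled to gene length and library size, which allow genes to be compared per length. The absolute depth is unknown. Ratios between the lowest values of the same gene placed the libraries at 1 to 1.31 times the depth of wild-type replicate 1. NCBP (AT5G18110) itself was lower in the NCBP mutant libraries, at 55.8 to 59.2 FPKM against 97.4 to 100.4 FPKM in the wild type, and in the TAIR10.1 annotation 12.7% of its exonic bases are shared with CSD3 on the other strand. The tissue labels were checked on markers. The 5 leaf markers summed to between 37890 and 45950 FPKM per library and the 6 root markers to between 74.3 and 83.5 FPKM, with overlapping groups. The 6 flower markers summed to between 3.397 and 5.36 FPKM and the 4 seed markers with a row to between 0.252 and 2.18 FPKM, and of the seed genes CRU3 and OLEO1 were listed at 0 in most libraries while CRA1 and EM6 were above 0 in each, at up to 0.587 and 1.56 FPKM.

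Among the measured genes, NDB2 rose in the mutant, and AOX1A, NDA1, NDA2 and UPOX did not pass the threshold. AOX1C, AOX1D and AOX2 were close to 0 in both groups. The test was limma on log2(FPKM + 1), run on the 18064 genes with a mean of at least 1 FPKM over the 6 libraries, with a threshold of 0.05 on the Benjamini-Hochberg adjusted p. Of the 8 measured genes, 5 passed the filter on low values, and 1 of these 5 was called, as higher. Among all genes tested 14.7% were called, 6.27% as higher and 8.44% as lower, and with 5 genes tested a single call is close to that background. In whole seedlings, fewer cells of a type and less RNA per cell cannot be told apart.

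**Figure D1:**
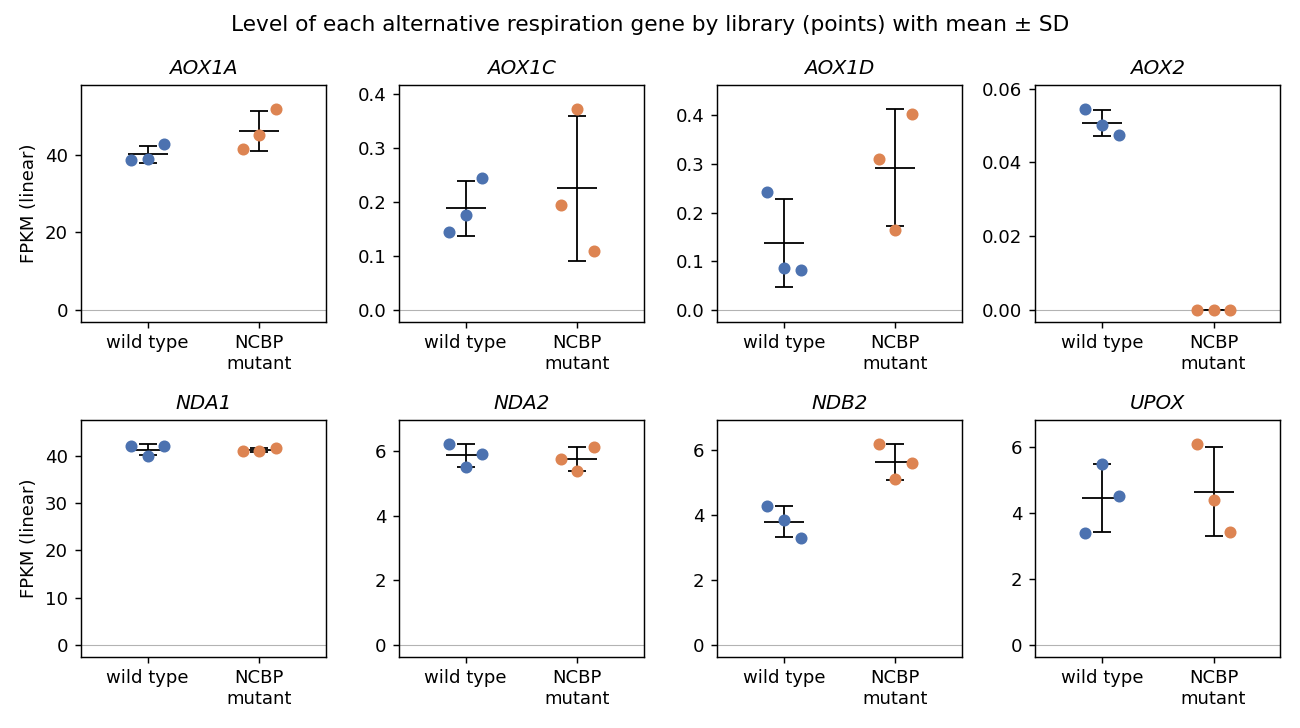
FPKM of the 8 measured genes in each library, on linear axes that differ between panels. Points are single libraries, horizontal marks are group means and bars are SD (n = 3 each). The 3 mutant libraries lie above the 3 wild-type libraries for NDB2, from 5.09 FPKM upward against at most 4.26 FPKM, and AOX2 is listed at 0 in each mutant library.

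AOX1A (AT3G22370) supplied nearly all transcript of the 4 measured alternative oxidase genes. Its level was 38.7, 38.9 and 42.7 FPKM in wild-type replicates 1, 2 and 3 and 41.5, 45.2 and 51.8 FPKM in mutant replicates 1, 2 and 3. The lowest mutant library lay below the highest wild-type library, so the groups overlapped, and mutant replicate 3 was the highest of all. The group means were 40.1 ± 2.22 and 46.2 ± 5.23 FPKM (SD, n = 3 each). The log2 fold change was 0.19 (SE 0.08, 95% interval 0.01 to 0.38). Its unadjusted limma p was 0.0453 and its adjusted p was 0.153, and a 2-sided exact permutation test gave p = 0.2, in a design of 3 against 3 libraries that cannot go under 0.1. Without mutant replicate 3 the log2 fold change was 0.11 (adjusted p 0.367). AOX1A stood above 85.5% of all loci by its mean level. It made up between 98.8% and 99.2% of the summed FPKM of the 4 measured AOX genes in every library.

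The other AOX genes were near the limit of measurement. AOX1D (AT1G32350), known for its induction in stressed and ageing leaves, had 0.242, 0.0868 and 0.0824 FPKM in the wild type and 0.31, 0.165 and 0.404 FPKM in the mutant. The mean was higher in the mutant but the groups overlapped, with wild-type replicate 1 above mutant replicate 2, and the exact permutation p was 0.2. AOX1C (AT3G27620), known mainly from flowers, had 0.144, 0.175 and 0.244 FPKM in the wild type and 0.194, 0.372 and 0.109 FPKM in the mutant. Both the highest and the lowest AOX1C value came from mutant libraries, and the exact permutation p was 0.8.

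AOX2 (AT5G64210), whose transcript is known from seeds, had 0.0544, 0.05 and 0.0473 FPKM in the wild type and was listed at 0 in the 3 mutant libraries. The wild-type values fell as depth rose: wild-type replicate 1 stood to replicates 2 and 3 as 1.088 and 1.15, close to their relative depths of 1.097 and 1.172, which is what an equal, very small number of fragments in each library would give. The mutant libraries stood at relative depths of 1.243, 1.157 and 1.311. The groups did not overlap, as for 35.5% of all genes tested and, as lower, 19.1%, and the exact permutation p was 0.1. Those shares are of genes with a mean of at least 1 FPKM, which AOX2 does not reach. A 0 in such a table may also be an estimate that failed, so whether AOX2 transcript was lost cannot be told from these values. With no filter on low values, where 22426 loci were tested, the limma adjusted p was 0.42 for AOX2, 0.268 for AOX1D and 0.824 for AOX1C.

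NDA1 (AT1G07180), an internal NADH dehydrogenase facing the matrix and known to be induced by light, was as abundant as AOX1A in the wild type. It had 42.1, 40.1 and 42.2 FPKM in the wild type and 41.2, 41.1 and 41.8 FPKM in the mutant, so the mutant values lay inside the wild-type range. It was also the steadiest of the genes, with an SD of 2.93% of the mean in the wild type and 0.832% in the mutant. The log2 fold change was -0.0028 (95% interval -0.12 to 0.11, adjusted p 0.978).

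NDA2 (AT2G29990), the second internal enzyme, had 6.22, 5.51 and 5.91 FPKM in the wild type and 5.75, 5.4 and 6.14 FPKM in the mutant. The groups overlapped over most of their range. The log2 fold change was -0.03 (95% interval -0.22 to 0.17, adjusted p 0.872). NDA1 was between 6.78 and 7.62 times as abundant as NDA2 within a library, and that range covers both groups.

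NDB2 (AT4G05020), on the outer face of the inner membrane, was the member that passed the threshold. It had 4.26, 3.84 and 3.28 FPKM in the wild type and 6.19, 5.09 and 5.61 FPKM in the mutant. Each mutant library was above each wild-type library, as was the case for 16.4% of all genes tested. The means were 3.79 ± 0.491 and 5.63 ± 0.55 FPKM, a ratio of 1.49. The log2 fold change was 0.47 (SE 0.11, 95% interval 0.22 to 0.72), with a limma adjusted p of 0.0242 and an exact permutation p of 0.1. The call depended on single libraries: the adjusted p was 0.0539 when wild-type replicate 2 was left out, 0.0707 when wild-type replicate 3 was, and 0.0878 and 0.0626 when mutant replicates 1 and 3 were. Over all its alternatives the adjusted p ran from 0.0201 to 0.0878. Its log2 fold change was 0.56 with a pseudocount of 0.1 and 0.27 with a pseudocount of 5. The limma adjusted p was 0.024 and 0.0233, so the size but not the call moved with the pseudocount.

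**Figure D2:**
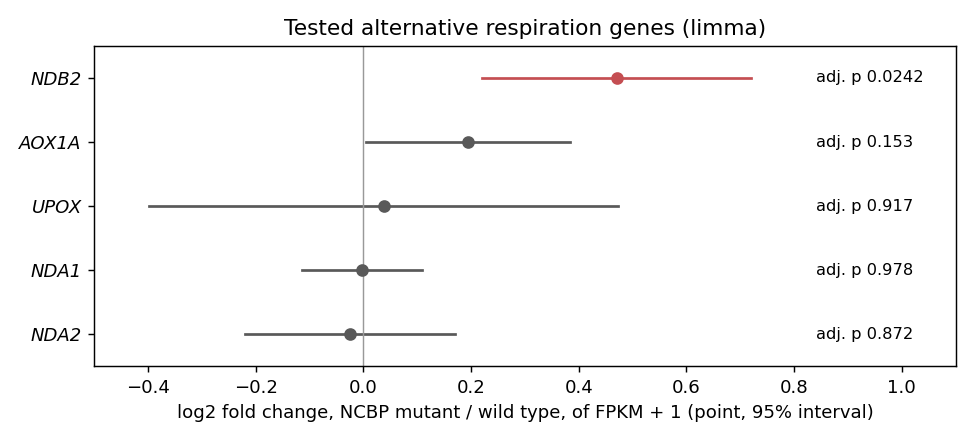
Fitted log2 fold change of FPKM + 1, mutant over wild type, for the 5 genes that passed the filter, with 95% intervals from limma and the adjusted p at the right. The interval of NDB2 runs from 0.22 to 0.72, that of NDA1 lies within -0.12 to 0.11, and that of UPOX is the widest, from -0.40 to 0.47.

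UPOX (AT2G21640), named for its rise under oxidative stress, encodes a small mitochondrial protein and is widely used beside AOX1A as a retrograde marker. It had 3.39, 5.46 and 4.49 FPKM in the wild type and 6.09, 4.39 and 3.41 FPKM in the mutant. The groups spanned nearly the same range. The log2 fold change was 0.04 (95% interval -0.40 to 0.47, adjusted p 0.917), so these libraries do not separate no change from a moderate one in either direction. Its SD was 23.3% of the mean in the wild type and 29.2% in the mutant.

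By level, the wild-type order was NDA1, AOX1A, NDA2, UPOX and NDB2. AOX1A and NDA1 overlapped, and so did UPOX and NDB2, while the lowest NDA2 library, at 5.51 FPKM, was just above the highest UPOX library, at 5.46 FPKM. In the mutant the order was AOX1A, NDA1, NDA2, NDB2 and UPOX. There AOX1A and NDA1 overlapped at their lower and upper ends, and NDA2, NDB2 and UPOX overlapped, since NDB2 at 5.09 to 6.19 FPKM reached the range of NDA2. AOX1C, AOX1D and AOX2 stayed under 0.41 FPKM in every library.

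Whether NDB2 moved apart from its partners was compared within each library, a comparison chosen after the values were seen. NDB2 stood at 0.685, 0.697 and 0.555 times the level of NDA2 in the wild type and at 1.077, 0.943 and 0.914 times in the mutant. The groups did not overlap for this ratio or for NDB2 over NDA1, and the exact permutation p was 0.1 for each, 0.2 after adjustment over the 4 ratios. Against AOX1A, NDB2 stood at 0.11, 0.0986 and 0.0769 in the wild type and at 0.149, 0.113 and 0.108 in the mutant. Those groups overlapped (exact permutation p = 0.2, adjusted 0.267), as did the ratios to UPOX (exact permutation p = 0.3, adjusted 0.3). With 3 against 3 libraries no ratio could pass a threshold of 0.05, so these p-values do not settle whether NDB2 moved apart from the other 4 genes.

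**Figure D3:**
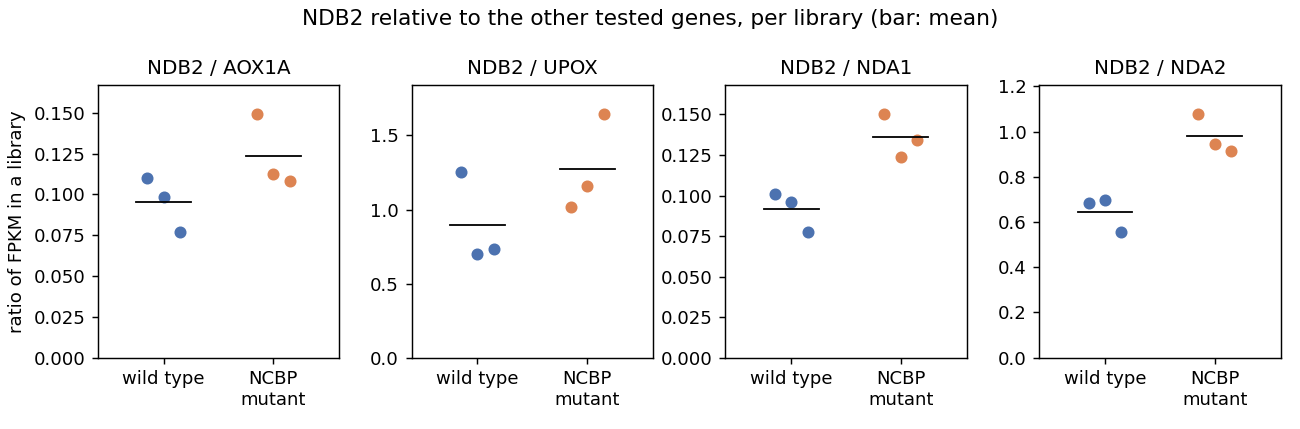
FPKM of NDB2 divided by that of AOX1A, UPOX, NDA1 or NDA2 in the same library, on linear axes that start at 0 and differ between panels. Points are libraries and bars are group means, and the ratio to NDA2 is at most 0.697 in the wild type and at least 0.914 in the mutant.

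A further list held other type II dehydrogenases, the plastid oxidase and uncoupling or dicarboxylate carriers. Of 11 listed genes, 10 had a row and 7 were tested. A rise was called for 1 of them and a fall for 1, and 5 missed the threshold, beside 6.27% called as higher and 8.44% as lower among all genes tested. DIC1 (AT2G22500), a mitochondrial dicarboxylate carrier formerly counted among the uncoupling proteins, had 5.28, 6.99 and 5.77 FPKM in the wild type and 9.996, 9.63 and 10.5 FPKM in the mutant. The groups were well apart, with a log2 fold change of 0.66 (adjusted p 0.00477). PTOX (AT4G22260), the plastid terminal oxidase and a distant relative of AOX, fell from 40.2 ± 2.32 to 33.1 ± 1.76 FPKM (log2 fold change -0.27, adjusted p 0.0245). That call was lost with no mean trend and in 4 of the 6 fits without 1 library, with adjusted p between 0.0191 and 0.0843 over its alternatives. The external dehydrogenase NDB1, the organellar NDC1 and the uncoupling proteins UCP1 and UCP3 missed the threshold, with log2 fold changes of 0.11, 0.11, 0.04 and 0.08.

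DIC2 (AT4G24570), a relative of DIC1, had 1.94, 1.91 and 8.23 FPKM in the mutant and 1.53 to 2.85 FPKM in the wild type. Mutant replicate 3 stood far above the other libraries, as it did less widely for AOX1A, and the adjusted p was 0.456. NDB4 (AT2G20800), an external dehydrogenase, was listed at 0 in each wild-type library and had 0.0488, 0.0262 and 0.0231 FPKM in the mutant libraries, too low to be read as a difference. NDB3 was under 0.19 FPKM in every library. How the authors assigned reads that fit several members of the NDA and NDB families, or both AOX1A and its tandem neighbour AOX1B, is not stated in the sources at hand, and these values are uncertain to that extent. No annotated gene overlaps any of the 9 genes in TAIR10.1.

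Regulators and further targets of mitochondrial retrograde signalling were listed separately. Of 12 listed regulators 9 could be tested, with 2 lower, 0 higher and 7 short of the threshold. Of 9 listed targets 7 could be tested, with 2 lower, 0 higher and 5 short of it. Over both lists 4 of 16 tested genes were called, each as lower, beside 8.44% called as lower and 6.27% as higher among all genes tested. The median log2 fold change was -0.11 for the regulators and -0.17 for the targets, beside -0.0034 over all genes tested. The regulator list is not made of activators of AOX1A alone. It also holds RCD1, known to hold activators back, and the other genes were not sorted by their effect on AOX1A. Its median therefore has no single direction of effect. The lists were written with earlier results of these data known.

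WRKY15 (AT2G23320), a transcription factor linked to the mitochondrial response under salt and oxidative stress, had 36.0, 34.9 and 35.6 FPKM in the wild type and 23.9, 25.04 and 23.8 FPKM in the mutant. The libraries of a group lay close together, and the log2 fold change was -0.53 (SE 0.05, adjusted p 0.000832). CDKE1 (AT5G63610), a Mediator kinase needed for AOX1A induction, fell from 14.1 ± 1.16 to 11.4 ± 0.47 FPKM (log2 fold change -0.29, adjusted p 0.0379). The call of CDKE1 was lost in 9 of 15 alternatives, with adjusted p between 0.0281 and 0.118. ANAC017 (AT1G34190) and ANAC013 (AT1G32870), membrane-bound NAC factors that activate AOX1A, had 24.2 and 5.17 FPKM in the wild type and 23.1 and 4.94 FPKM in the mutant, and neither passed. RCD1, a nuclear protein known to hold these factors back, had a log2 fold change of -0.12 (adjusted p 0.151). WRKY63 (AT1G66600) was listed at 0 in each wild-type library and had 0.384, 0.248 and 0.445 FPKM in the mutant libraries, below the filter.

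Among the targets, AT12CYS-1 (AT5G64400), a small cysteine-rich mitochondrial protein, fell from 512 ± 21.9 to 407 ± 22.4 FPKM (log2 fold change -0.33, adjusted p 0.00924). In TAIR10.1 it shares 27.5% of its exonic bases with HEN4 on the same strand, so reads of that stretch fit both genes. AT12CYS-2 (AT5G09570), also on the target list, had 0.578 FPKM in the wild type and 0.493 FPKM in the mutant. Its groups overlapped, and it was below the filter, so the fall of AT12CYS-1 does not speak for AT12CYS-2. GSTU24 (AT1G17170), a glutathione transferase, fell from 54.2 ± 3.04 to 38.4 ± 5.498 FPKM (log2 fold change -0.50, adjusted p 0.013). Its relative GSTU25 had a log2 fold change of 0.28 and did not pass, and the handling of reads that fit both copies is not stated either. SOT12, OM66 and UGT74E2, typical genes of the mitochondrial dysfunction response, had log2 fold changes of -0.06, 0.07 and -0.41 with adjusted p of 0.693, 0.753 and 0.141.

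**Figure D4:**
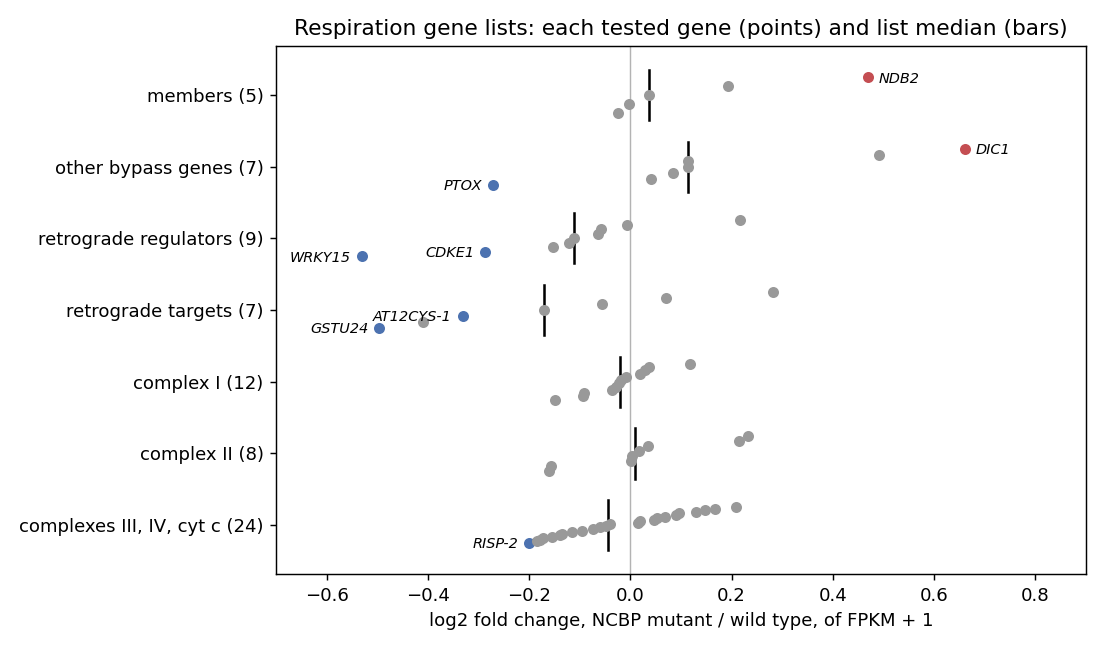
Log2 fold change of FPKM + 1, mutant over wild type, of each tested gene by list, with the number tested in brackets. Red and blue points passed the threshold as higher and lower, grey points did not, and black bars are list medians. The called genes of both retrograde lists lie below 0, while the 44 cytochrome-pathway genes lie within -0.20 to 0.23.

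The cytochrome pathway competes with AOX for electrons, and few of its listed nuclear genes were called at the transcript level. Of 44 tested nuclear genes for complexes I, II, III and IV and cytochrome c, 0 rose and 1 fell, which is 2.27% called beside 14.7% of all genes tested. The log2 fold changes lay between -0.20 and 0.23 with a median of -0.01, and 21 were above 0 and 23 below. The groups did not overlap, as higher and lower, for 1 and 2 of 12 complex I genes. The counts were 2 and 1 of 8 for complex II, and 5 and 3 of 24 for complexes III and IV and cytochrome c. Among all genes tested these shares were 16.4% and 19.1%. RISP-2 (AT5G13440), a copy of the Rieske iron-sulfur subunit of complex III, fell from 107 ± 1.82 to 92.9 ± 1.53 FPKM (log2 fold change -0.20, adjusted p 0.0209), while the other copy, RISP-1 (AT5G13430), had 70.9 and 75.8 FPKM and did not pass. The call of RISP-2 was lost in 5 of 15 alternatives, with adjusted p between 0.0195 and 0.0803. The complex I and II genes with the smallest p were PSST (AT5G11770), at a log2 fold change of -0.15 (adjusted p 0.14), and SDH2-1 (AT3G27380), at 0.23 (adjusted p 0.072). SDH2-1 passed as higher after rescaling to the same sum (adjusted p 0.0321) and without wild-type replicate 2 (0.0324).

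The genes most like AOX1A over the 6 libraries, by Pearson's r of log2(FPKM + 1), were CBP60G (AT5G26920) at 0.996, AT4G36500 at 0.993 and AT5G24490 at 0.988. CBP60G, a regulator of salicylic acid synthesis, had 1.696 FPKM in the wild type and 2.58 FPKM in the mutant and did not pass the threshold (adjusted p 0.165). For UPOX they were AT3G51100, RBP47B (AT3G19130) and AT3G21100, at 0.986, 0.982 and 0.979. Of the 18064 genes tested, 172 exceeded an r of 0.9 with AOX1A and 86 with UPOX. Picked as the highest of so many genes over only 6 libraries, such values carry little weight. Differences in depth and group between the libraries can act on both genes of a pair, and these values are a description.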

How the data were processed

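RNA from 3 wild-type and 3 NCBP mutant libraries was measured. The deposited values were FPKM in a table of the whole series, made by the authors. HISAT2 is named, without a version, per the submitters' processing notes. Not given in the sources used here are the quantifier, build, annotation, strand and depth. Without counts, tests for counts were not applied. Because FPKM is relative to the library, abundant genes move the rest, and low values rest on few reads. Gene names and overlaps came from RefSeq's TAIR10.1 annotation, which matched 108 of 108 listed loci. No sequences or coordinates are printed.

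Values were analysed as log2(FPKM + 1), which understates changes of low genes. Genes with a mean of at least 1 FPKM were tested with limma 3.58.1 in R 4.3.3 (mean trend, 2-sided, Benjamini-Hochberg over 18064 genes), and every adjusted p of a gene is from limma. This test was first run on simulated data with independent normal noise at limma's own fitted variances, a setting that favours limma. It recovered 76% of 100 genes whose FPKM + 1 was changed 1.5-fold and 99% of 100 changed 2-fold, with 10 false calls. For low genes such a change is larger in FPKM itself, so recovery of a 1.5-fold change in their FPKM is overstated. Smaller changes of FPKM + 1, such as those of AOX1A and NDB2, were not simulated. Single values were also compared by exact permutation over libraries. Relative depth was the ratio to wild-type replicate 1 that recurred most often, within 0.01 on the log2 scale, among 1348 to 1481 genes under 0.5 FPKM, of which 62 to 147 met at it. Named genes were the 9 members, NCBP, up to 4 called genes per list or else the one with the smallest p, and the 3 genes most like AOX1A and UPOX. Others complete a list or a family and were chosen after their values were seen. Members and lists were chosen with earlier results of these data known. The results were recomputed with a pseudocount of 0.1 or 5, without the filter or with a mean of at least 5 FPKM, with rescaling to the same sum, median-ratio scaling, no trend, robust moderation, a replicate block and leaving out each library.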

Additional observations from a re-analysis of the deposited data

How the results depend on the processing

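AOX1A and DIC1 kept their direction and side of the threshold in 15 of 15 alternatives, AOX1A at log2 fold changes of 0.11 to 0.27. NDB2 kept its direction in 14 of 14 and lost its call in 4 of the 6 fits without 1 library. Over those 6 fits its log2 fold change lay between 0.39 and 0.54. At a mean of at least 5 FPKM NDB2 was not tested, and 0 of the measured members were called, against 1 otherwise and 0 to 1 without 1 library. The near-zero log2 fold change of NDA1 turned to 0.0236 after rescaling to the same sum and to 0.0018 with median-ratio scaling, and lay between -0.027 and 0.0097 without 1 library. UPOX lay between -0.14 and 0.20 and NDA2 between -0.065 and 0.014 without 1 library, so neither has a settled direction. The 7 calls among the other listed genes were 4 with no mean trend and 4 to 7 without 1 library.

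Of all genes tested, 2657 were called, 1133 higher and 1524 lower. After rescaling to the same sum the split was 1286 to 1100, so that 53.9% of calls were higher instead of 42.6%. Without 1 library the calls numbered 1321 to 1997, with 579 to 987 higher and 720 to 1107 lower. These fits have fewer samples, and for the rescaling the cause was not tested.

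Same-numbered libraries did not deviate together over all genes tested (r of deviations 0.07, -0.07 and -0.06). The labels do not say whether replicates were prepared in pairs, and these values cannot exclude it. With a replicate block 1991 genes were called, NDB2 kept its call (adjusted p 0.0376), AOX1A stayed above the threshold (0.0874), and the calls of CDKE1 (0.0756) and RISP-2 (0.0553) were lost. With pseudocounts of 0.1 and 5 the difference of mean log2 values was 0.74 and 0.04 for AOX1D and -0.59 and -0.01 for AOX2, against 0.18 and -0.07 with 1, so their size is set by the pseudocount.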

Other observations

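Among the 5 tested members, Pearson's r of log2(FPKM + 1) over the 6 libraries was 0.774 for NDA1 with NDA2, 0.46 for AOX1A with NDB2 and -0.412 for AOX1A with UPOX. These are descriptions, since differences in group and depth between the 6 libraries can act on both genes of a pair. In the leaf, root and flower marker lists no tested gene passed the threshold, and no seed marker passed the filter. SEP3, a floral organ identity gene, had 1.92 FPKM in the wild type and 2.91 FPKM in the mutant (limma adjusted p 0.0712). PI, the other tested flower marker, went the other way, with 2.56 and 1.27 FPKM (adjusted p 0.106). COBL9, a root hair gene and the root marker with the smallest p, had 1.47 and 2.08 FPKM (adjusted p 0.194). Of the 6 root markers 4 had a log2 fold change above 0 and 2 below, with EXPA7 at 7.65 and 7.73 FPKM. The leaf marker with the smallest p was LHCB1.1, an antenna protein gene, with 7361 and 8619 FPKM (adjusted p 0.133). Of the 5 leaf markers 2 had a log2 fold change above 0 and 3 below.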
